A study of Mus musculus with 12 samples.

Results

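Amino acid transporters were followed in E0771 mammary tumors during cyclophosphamide (CPA) treatment. The genes were taken from the table by symbol alone, as every row of the SLC1, SLC7, SLC36 and SLC38 families and the heavy chains Slc3a1 and Slc3a2, with Slc7a11 left out. This gave 38 genes of the 24197 rows. The rule itself uses symbols only. E0771 is a mouse mammary carcinoma line, implanted here into the mammary fat pad of C57/BL6N females, and CPA is an alkylating prodrug that the liver activates.

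Tumors were collected from PBS vehicle-injected mice aged 9 to 10 weeks and from mice given 130 mg/kg CPA on day 0 by the labels, although the dose given elsewhere in the study differs. The day 1, day 2 and day 3 tumors came from mice of 9 to 10 weeks, and the day 6 tumors came from mice of 11 weeks. The day 12 mice were 12 weeks old and had received a second dose on day 6, so that day 12 stands for 2 treatment cycles and day 6 for 1. Each group had 2 stranded polyA RNA libraries, each made from RNA pooled from several tumors (2 to 3 by the series description), and 1 library titled as CPA day 1 carries a vehicle treatment label, although the table header places it in the day 1 group. Age and cycle number change together with the day and cannot be told apart from it beyond day 3. The labels do not give a collection day for the vehicle tumors.

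The table holds 1 value per group in FPKM (fragments scaled to transcript length and to library size), so levels can be compared between genes. It is the authors' value for both libraries together, so a spread between libraries cannot be computed from the FPKM values, and no test is made below. The authors' own comparison columns were not used. A gene was counted as higher or lower only past a 2-fold difference on log2(FPKM + 0.1), among the 10649 rows with a mean over the 6 groups of at least 1 FPKM. Such counts are set beside the share of all 10649 genes past the same fold. All 5 CPA days are set against the same vehicle value, so the 5 comparisons are not independent of each other. In bulk tumor RNA, fewer cells of a type and less RNA per cell cannot be told apart.

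Amino acids do not cross membranes unaided, and cells carry them through transporters of a few families. The SLC7 light chains are exchangers that need a heavy chain, Slc3a2 or Slc3a1, to reach the plasma membrane, whereas the cationic SLC7 transporters work alone. SLC38 and some SLC1 proteins use the sodium gradient to load or exchange neutral amino acids such as glutamine, and the exchangers then trade these for essential amino acids such as leucine, which activates the growth kinase mTORC1. When amino acids run short, the transcription factor ATF4 raises many of these genes through a short DNA element, TGATGNAA.

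Facts of the whole table bear on these values. The median log2 ratio of all tested genes lay between -0.03 and 0.06 on days 1, 2, 3 and 6, but was -0.26 on day 12, so a gene at the middle of the table was already below vehicle on that day. Repeated steps in values below 0.05 FPKM showed that 1 fragment was worth 1.91 times as much FPKM in one day 12 library as in the other, against at most 1.14 times in the other groups, so the day 12 value rests on libraries of unequal depth. Of the 9 epithelial markers, Krt8 was at 125 FPKM and Erbb2 at 3.58 FPKM in vehicle tumors. The others, among them Krt18 (0.518 FPKM), Epcam (0.189 FPKM) and Krt19 (0.952 FPKM), were below 1 FPKM there. On day 12, Krt8 (82.2 FPKM) and Erbb2 (1.49 FPKM) were lower, and all the others were higher, with Krt19 at 77.0 FPKM.

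The promoters of 28 of the 38 genes matched the RefSeq window table, which holds 250 bases before to 50 bases after each gene start (build GRCm38.p6). The element TGATGNAA was searched on both strands, with overlapping matches kept, and it occurred in 3.97% of all 32851 windows. Counted by gene, it stood in 4.51% of all genes with a window and in 2 of the 28 (7.14%), Slc1a4 and Slc7a7. A gene with several windows has more chances to hold it. These are shown with Slc7a10, whose level differed most on day 12 and whose window held no match, since they let the letters be read beside levels that went opposite ways.
Slc1a4, chr11:20332710-20332813, minus strand: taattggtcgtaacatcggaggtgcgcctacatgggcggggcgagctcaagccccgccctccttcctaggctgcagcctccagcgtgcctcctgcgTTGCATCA
Slc7a7, chr14:54417938-54418089, minus strand: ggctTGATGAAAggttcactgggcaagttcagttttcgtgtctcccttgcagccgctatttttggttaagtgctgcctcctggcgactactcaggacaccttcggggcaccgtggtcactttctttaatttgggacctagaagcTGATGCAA
Slc7a10, chr7:35186285-35186384, plus strand: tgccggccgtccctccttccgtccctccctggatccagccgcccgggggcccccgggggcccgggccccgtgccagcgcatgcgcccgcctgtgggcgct
The capitals mark the element. In Slc1a4 it lies on the opposite strand and spans the start. In Slc7a7 it begins 141 bases before the start and occurs again across it. Of its 5 windows, 1 per start, 2 held the element and the one shown held it in both places. The other overlaps the one shown and held only the same site that spans the start there, so it adds no further site. No element is shown here to be bound. The windows of Slc7a5, Slc7a2, Slc7a3, Slc7a4, Slc7a12, Slc7a13, Slc1a5, Slc36a2, Slc38a1 and Slc38a3 were not analysed here.

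Of the 38 transporters, 16 had a mean of at least 1 FPKM and 22 did not. None of the 16 was past 2-fold on day 1, day 2 or day 3, when 0.225%, 0.648% and 1.33% of all tested genes were higher and 0.244%, 0.498% and 0.573% were lower. On day 6, 1 transporter, Slc7a8, was higher and none was lower, beside 6.32% of all genes higher and 0.46% lower. On day 12, 4 of the 16 were lower (Slc7a5, Slc1a4, Slc7a1 and Slc38a1), beside 9.67% of all genes, and 3 were higher (Slc7a8, Slc36a1 and Slc7a10), beside 11.6% of all genes. With the ratios of that day recentered on the median gene, the lower genes were 2 (Slc7a5 and Slc1a4) and the higher ones 4, with Slc7a7 added, beside 4.39% lower and 14.5% higher of all genes. With a pseudocount of 1, the log2 ratios of Slc38a1 (-0.96) and Slc36a1 (0.90) on day 12 and of Slc7a8 on day 6 (0.97) fell short of 2-fold. Slc7a10 passed the filter on low values only through day 12, its mean over the other 5 groups being 0.167 FPKM. Without it, 2 of 15 were higher on day 12 (13.3%) and 4 of 15 were lower (26.7%). The 11.6% and 9.67% of all genes rest on the filter that includes day 12, so they are not like shares for these 15.

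**Figure D1:**
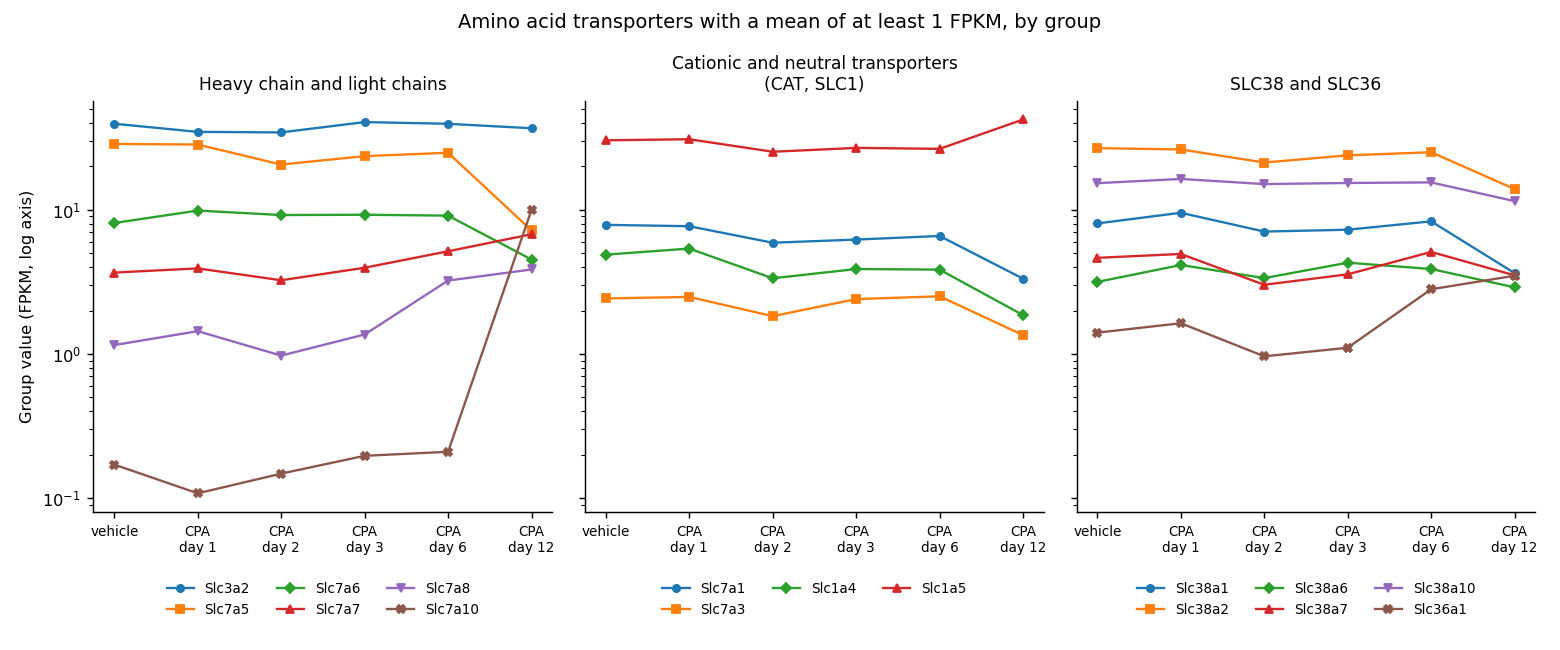
Group values in FPKM on a log axis for the 16 transporters with a mean of at least 1 FPKM, in vehicle tumors and on CPA days 1, 2, 3, 6 and 12; each point is the authors' single value for 2 libraries, with no error bar. Slc7a5 is lowest on day 12, at 7.18 FPKM, whereas Slc7a10 is highest there, at 9.96 FPKM.

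The heavy chain Slc3a2 (4F2hc, CD98) anchors most SLC7 light chains in the plasma membrane. It was the most abundant of the 38 genes in vehicle tumors, at 39.4 FPKM, and measured 34.6, 34.3, 40.4, 39.4 and 36.6 FPKM on days 1, 2, 3, 6 and 12. All 6 values lay within a narrow band, and the day 12 log2 ratio of -0.10 turned to 0.16 after recentering. The other heavy chain, Slc3a1 (rBAT), which serves cystine uptake in kidney and gut, did not exceed 0.0817 FPKM.

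The main light chain, Slc7a5 (LAT1, chr8:124405045-124431586 in mm9), imports leucine and other large neutral amino acids and is known for high levels in tumors. It measured 28.6 FPKM in vehicle tumors and 28.3, 20.5, 23.5, 24.8 and 7.18 FPKM on days 1, 2, 3, 6 and 12. The first 4 CPA days kept most of the vehicle level, and day 12 stood apart at 3.94-fold lower (log2 ratio -1.98). Of all tested genes, 0.535% had a lower day 12 ratio than Slc7a5.

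Slc7a6 (y+LAT2), which exchanges cationic for neutral amino acids, measured 8.08 FPKM in vehicle tumors and 9.85, 9.18, 9.22, 9.09 and 4.51 FPKM on the successive CPA days. Its day 12 value was the lowest, but the log2 ratio of -0.83 did not reach 2-fold. Its relative Slc7a7 (y+LAT1), mutated in human lysinuric protein intolerance and also used by macrophages, took the other direction. It measured 3.66 FPKM in vehicle tumors and 3.92, 3.24, 3.96, 5.15 and 6.75 FPKM on days 1, 2, 3, 6 and 12. Day 6 and day 12 were its highest values, at log2 ratios of 0.48 and 0.86. Both genes with the element in their window thus lay on opposite sides of vehicle on day 12, Slc7a7 above it and Slc1a4 below it.

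Slc7a8 (LAT2, chr14:55341051-55400723) also carries large neutral amino acids, with a wider range than LAT1. It measured 1.15 FPKM in vehicle tumors and 1.44, 0.974, 1.36, 3.23 and 3.85 FPKM on the CPA days. The step came between day 3 and day 6, when it was 2.66-fold above vehicle (log2 ratio 1.41), and it stood at 3.15-fold on day 12 (log2 ratio 1.66). It was the only one of the 16 past 2-fold on both days, the day 6 call being lost with a pseudocount of 1.

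Slc7a10 (Asc-1, chr7:35971403-35986130) exchanges small neutral amino acids such as serine and is known as a surface protein of white adipocytes and of neurons. It measured 0.171 FPKM in vehicle tumors and 0.108, 0.148, 0.197, 0.21 and 9.96 FPKM on days 1, 2, 3, 6 and 12. The first 5 groups were all near 0, and day 12 alone was high (log2 ratio 5.21, a size that depends on the pseudocount of 0.1). The 10 adipocyte markers, among them Adipoq, Fabp4 and Plin1, summed to 5261 FPKM on day 12, against 101 FPKM on day 6 and 77.7 FPKM in vehicle tumors. All 10 were over 2-fold higher on day 12 and 3 of 10 on day 6, beside 11.6% and 6.32% of all tested genes. None of the 10 was at 0 in any of these groups. Plin1, Lep and Cidea passed the filter on low values only through day 12. Their means over the other 5 groups were 0.517, 0.111 and 0.0914 FPKM, so nothing is read from their day 12 calls. The part of the adipocyte markers in the Slc7a10 level was not tested.

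The light chains that pair with Slc3a2 can be summed, since FPKM is per length. Slc7a5, Slc7a6, Slc7a7, Slc7a8 and Slc7a10 together came to 41.6 FPKM in vehicle tumors and 43.6, 34.1, 38.2, 42.5 and 32.3 FPKM on days 1, 2, 3, 6 and 12. Slc7a5 made up 22.3% of that sum on day 12, against 68.6% in vehicle tumors, and its share lay between 58.4% and 64.9% on the other days. Without Slc7a10, the sum was 22.3 FPKM on day 12, against 41.4 FPKM in vehicle tumors, with a Slc7a5 share of 32.2%, against 68.9%. Slc7a11 (xCT), the cystine importer that also pairs with Slc3a2 and is no member of the 38, measured 0.839 FPKM on day 12, against 0.106 FPKM in vehicle tumors. The other light chains, Slc7a9, Slc7a12, Slc7a13 and Slc7a15, were at or near 0 in every group, with the highest value, 0.015 FPKM, for Slc7a9.

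**Figure D2:**
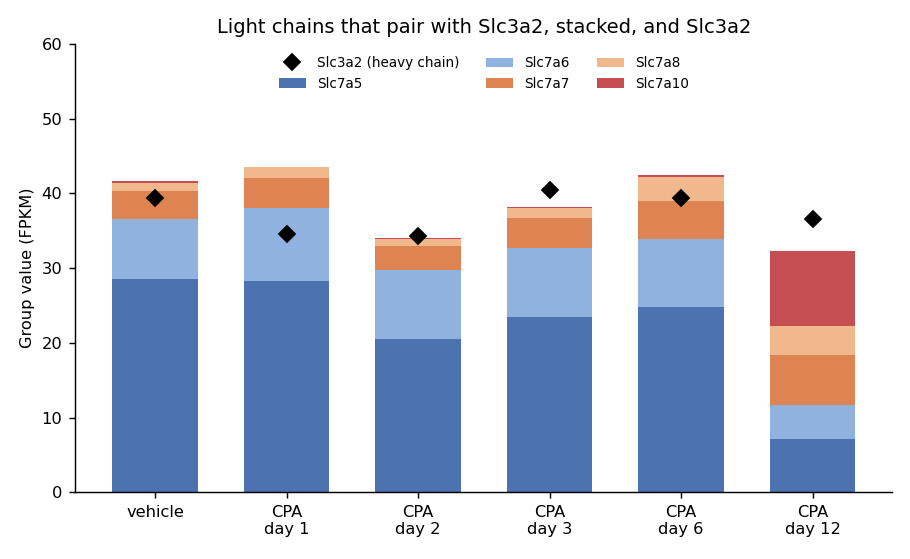
Stacked bars give the FPKM of 5 light chains in vehicle tumors and on each CPA day, and black diamonds the FPKM of their heavy chain Slc3a2. On day 12 the Slc7a5 segment is 22.3% of the bar, against 68.6% in vehicle, while Slc3a2 is at 36.6 FPKM, against 39.4 FPKM.

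The cationic transporters bring in arginine and lysine. Slc7a1 (CAT-1, chr5:149138985-149211480), the widespread form, measured 7.85 FPKM in vehicle tumors and 7.68, 5.9, 6.2, 6.57 and 3.32 FPKM on days 1, 2, 3, 6 and 12. It was 2.32-fold lower on day 12 (log2 ratio -1.21, and -0.95 recentered), and every earlier CPA day lay nearer to vehicle. Slc7a3 (CAT-3), best known from brain, measured 2.42 FPKM in vehicle tumors and 2.48, 1.83, 2.4, 2.51 and 1.35 FPKM on the CPA days. It was lowest on day 12 but stayed inside 2-fold, at a log2 ratio of -0.80. Slc7a2 (CAT-2), the form used by activated macrophages, was below the filter on low values, at 0.0989 FPKM in vehicle tumors and 0.28 FPKM on day 6, but reached 2.26 FPKM on day 12. Slc7a1 and Slc7a2 thus ran in opposite directions. The 10 macrophage markers summed to 2936 FPKM on day 12 and 1532 FPKM on day 6, against 492 FPKM in vehicle tumors. All 10 were over 2-fold higher on both days, beside 11.6% of all tested genes on day 12 and 6.32% on day 6. Their part in the Slc7a2, Slc7a7 and Slc7a8 levels was not tested. Slc7a4 and Slc7a14 did not exceed 0.231 FPKM.

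Among the SLC1 genes, the neutral exchangers Slc1a4 and Slc1a5 were expressed and the glutamate transporters were low. Slc1a5 (ASCT2, chr7:17366694-17383623), a main entry route for glutamine, measured 30.2 FPKM in vehicle tumors and 30.8, 25.2, 26.8, 26.4 and 42.2 FPKM on the CPA days. It was the most abundant of the 38 transporters on day 12, 1.39-fold above vehicle (log2 ratio 0.48, short of a call), and so did not follow the other abundant importers. Slc1a4 (ASCT1, chr11:20202182-20232716), which favors serine, alanine and cysteine, measured 4.88 FPKM in vehicle tumors and 5.37, 3.34, 3.88, 3.84 and 1.86 FPKM on days 1, 2, 3, 6 and 12. It was 2.54-fold lower on day 12 (log2 ratio -1.35), and it stayed past 2-fold after recentering, at -1.08.

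Of the glutamate transporters, Slc1a3 (GLAST), known from astrocytes, measured 0.0687 FPKM in vehicle tumors and 0.15 FPKM on day 6 but 2.09 FPKM on day 12. Slc1a7, known from retina, had the opposite order, with 0.315 FPKM on day 12, against 0.836 FPKM in vehicle tumors. Slc1a1, Slc1a2 and Slc1a6 stayed at or below 0.0655 FPKM.

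The SLC38 system A carriers concentrate glutamine, alanine and other small neutral amino acids with sodium. Slc38a2 (SNAT2), which cells raise when amino acids are short, measured 26.7 FPKM in vehicle tumors and 26.1, 21.2, 23.8, 25 and 13.9 FPKM on days 1, 2, 3, 6 and 12. Its day 12 log2 ratio of -0.94 stopped just short of 2-fold. Slc38a1 (SNAT1, chr15:96401848-96473344) measured 8.03 FPKM in vehicle tumors and 9.51, 7.05, 7.26, 8.3 and 3.63 FPKM on the CPA days. It was 2.18-fold lower on day 12 (log2 ratio -1.12, and -0.86 recentered), with the 5 other groups between 7.05 and 9.51 FPKM. Slc38a4, the third system A gene, stayed at or below 0.127 FPKM, and the system N genes Slc38a3 and Slc38a5 at or below 0.317 FPKM.

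The lysosomal and less studied SLC38 members differed less. Slc38a10 measured 15.3 FPKM in vehicle tumors, 16.3, 15, 15.3 and 15.4 FPKM on days 1, 2, 3 and 6, and 11.5 FPKM on day 12 (log2 ratio -0.41). Slc38a7, which moves glutamine and asparagine out of lysosomes, measured 4.64 FPKM in vehicle tumors and 4.93, 3.01, 3.56, 5.09 and 3.51 FPKM on the CPA days. Its lowest value came on day 2 rather than on day 12, at a log2 ratio of -0.60. Slc38a6 measured 3.16 FPKM in vehicle tumors and 4.13, 3.35, 4.29, 3.88 and 2.89 FPKM on the CPA days, with no call on any day. Slc38a9, the lysosomal arginine sensor for mTORC1, measured 0.744 FPKM in vehicle tumors and was highest on day 6, at 1.09 FPKM. Slc38a8 and Slc38a11 did not exceed 0.0594 FPKM.

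The SLC36 genes encode proton-coupled carriers. Slc36a1 (PAT1, chr11:55017841-55049832), which carries small amino acids out of lysosomes, measured 1.4 FPKM in vehicle tumors and 1.63, 0.962, 1.1, 2.81 and 3.48 FPKM on days 1, 2, 3, 6 and 12. Day 6 and day 12 were above all earlier groups, with log2 ratios of 0.95 and 1.25, and the second was past 2-fold with the pseudocount of 0.1 but not with 1. Slc36a2 (PAT2), also known from brown and beige adipocytes, was below the filter on low values, at 0.115 FPKM in vehicle tumors and 0.178 FPKM on day 6, but measured 3.43 FPKM on day 12. The adipocyte markers given above were likewise high on day 12, and their part in the Slc36a2 level was not tested. Slc36a4 measured 0.271 FPKM on day 12, against 0.0686 FPKM in vehicle tumors, and Slc36a3 did not exceed 0.0622 FPKM.

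**Figure D3:**
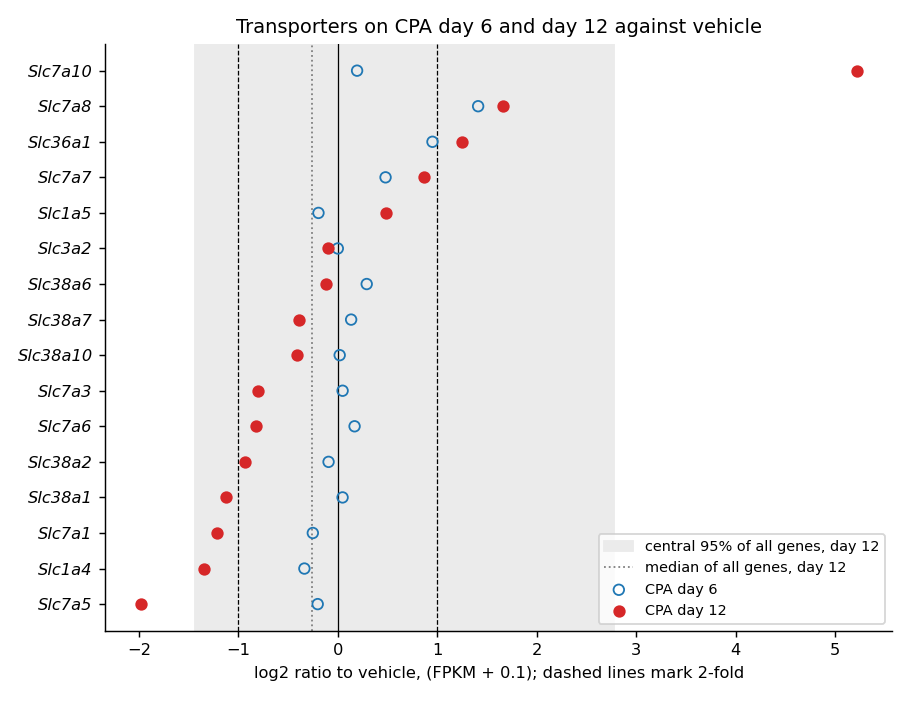
Log2 ratio to vehicle on log2(FPKM + 0.1) for the 16 transporters on CPA day 6 (open blue) and day 12 (filled red), with dashed lines at 2-fold, a dotted line at the median of all 10649 tested genes on day 12 and gray for their central 95%. Slc7a5 at -1.98 and Slc7a10 at 5.21 lie outside the gray band on day 12.

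As a group, the transporters were spread to both sides on day 12. The median log2 ratio of the 16 was -0.40, beside -0.26 for all tested genes, with 9 of the 16 below the median gene and 7 above it. Day 12 was the lowest of the 6 groups for 9 of the 16, beside 55.8% of all tested genes, and the highest for 5 of the 16, beside 24.2%. The share of lowest values lies near that of all genes. The 5 and the 7 both count Slc7a10, which passed the filter on low values only through its day 12 value. The 24.2% likewise counts any gene that passed in that way, so nothing is read from the share of highest values. Summed over all 38 genes, the level was 167 FPKM on day 12, against 188 FPKM in vehicle tumors. Of the 22 genes below the filter on low values, 2 were listed at 0 in every group and 15 others never reached 0.5 FPKM. Of the 20 of these that were above 0 somewhere, 14 had their highest value on day 12, beside 55.9% of all such rows, and 4 of the 22 reached 1 FPKM in any group (Slc1a3, Slc7a2, Slc36a2 and Slc38a9, named after their values were seen).

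A smaller dip came on day 2. On that day 14 of the 16 were below vehicle by any amount, beside 56.4% of all tested genes, and 13 of the 16 were lower than in vehicle tumors and on days 1, 3 and 6, beside 31.8% of all genes. Both counts were made for day 2 alone and were not planned, and both rest on the same day 2 and vehicle values. Nothing is therefore read from how they stand beside the shares of all genes. The dips were small. The log2 ratios of day 2 ran from -0.60 for Slc38a7 to 0.18 for Slc7a6, and 1 of the 16, Slc38a7, lay outside the central 95% of all tested genes (-0.58 to 0.62). Slc7a5 was at -0.47 and Slc1a4 at -0.53 on that day.

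Day 12 after 2 cycles can be set beside day 6 after 1 cycle, 6 days after the last dose in either case. Slc7a5 was at 7.18 FPKM on day 12, against 24.8 FPKM on day 6, and Slc38a1 at 3.63 FPKM, against 8.3 FPKM. Slc7a8 was at 3.85 FPKM on day 12, against 3.23 FPKM on day 6, and Slc36a1 at 3.48 FPKM, against 2.81 FPKM. Among the 16, values over 2-fold below vehicle appeared only on day 12, whereas Slc7a8 and Slc36a1 already stood above vehicle on day 6. The 10 proliferation markers, among them Mki67 and Top2a, summed to 163 FPKM on day 12, against 237 FPKM in vehicle tumors. They summed to 248 FPKM on day 6. On day 12, 4 of 10 were over 2-fold lower, beside 9.67% of all tested genes, and none on day 6, beside 0.46%. Their median log2 ratio on day 12 was -0.97, beside -0.26 for all tested genes. The lowest was -1.10 (Top2a), so none of the 4 would stay past 2-fold after recentering on the median gene. Mki67 was at -0.22 and Pcna at 0.04. The part of the proliferation markers in the lower transporter levels was not tested. Genes over 2-fold higher on day 12 also stood in the lists for T cells (7 of 7 tested), neutrophils (6 of 6) and fibroblasts (5 of 7). The same held for mammary epithelium (5 of 7, with 1 lower) and endothelium (1 of 4), beside 11.6% higher and 9.67% lower of all tested genes. All 5 higher epithelial genes (Krt7, Krt14, Krt18, Krt19 and Epcam) passed the filter on low values only through day 12. So did Retnlg, S100a9 and Il1r2 of the neutrophil list and Lum of the fibroblast list. Nothing is read from the day 12 calls of these genes. The part of these lists was not tested either.

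Several of the genes lie side by side in the mm9 coordinates of the table, with 6 pairs of neighbors less than 500 kb apart. In 3 pairs both genes were above the near-zero range on day 12, a choice that itself uses the day 12 values. On chromosome 11, Slc36a2 and Slc36a1 are 19.3 kb apart, and both were higher on day 12. Slc36a2 was below the filter on low values and did not exceed 0.178 FPKM in any other group. It entered this choice only through day 12, so nothing is read from that pair. On chromosome 14, Slc7a7 and Slc7a8 are 305 kb apart, and both were higher on day 12, although only Slc7a8 was past 2-fold. On chromosome 15, Slc38a1 and Slc38a2 are 44.5 kb apart, and both were lower on day 12. In the other 3 pairs (Slc36a3 with Slc36a2, Slc38a2 with Slc38a4, and Slc7a10 with Slc7a9) one gene was near 0 throughout.

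The ATF4 and amino acid response genes include amino acid synthesis enzymes and feedback regulators. Of the 18 of 20 that passed the filter on low values, none was higher and 8 were lower on day 12, beside 11.6% and 9.67% of all tested genes, and their median log2 ratio was -0.76, beside -0.26. None of the 18 was past 2-fold on any earlier day. Chac1, which degrades glutathione, measured 0.717 FPKM on day 12, against 3.09 FPKM in vehicle tumors. Aldh18a1, of proline synthesis, measured 3.2 FPKM, against 10.7 FPKM. Psat1, of serine synthesis, measured 14.1 FPKM, against 42.4 FPKM, and Trib3, a pseudokinase that restrains ATF4, measured 10.8 FPKM, against 31.6 FPKM. Trib3 was already at 19.5 FPKM on day 1. Several transporters are themselves known as ATF4 targets, so the lists are not separate in biology. The element TGATGNAA stood in the window of 7 of 19 genes of this list, or 36.8%, beside 4.51% of all genes with a window and 7.14% of the transporters with one. These 7 went both ways on day 12. Chac1, Trib3, Asns and Pycr1 lay below vehicle, and Atf3, Nupr1 and Vldlr above it, with Pycr1 and Vldlr below the filter on low values. Slc7a11, which was higher on day 12, also held the element. A part of ATF4 in the transporter levels was not tested.

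Of the other amino acid transporters, 6 of 17 in the table passed the filter, and 2 were higher and 1 lower on day 12, beside 11.6% and 9.67% of all tested genes. Slc15a3, a lysosomal carrier of histidine and small peptides, measured 43.0 FPKM on day 12, against 8.45 FPKM in vehicle tumors, and was at 21.5 FPKM on day 6. Slc43a2 (LAT4), a leucine carrier that needs no heavy chain, measured 9.11 FPKM, against 3.82 FPKM. Slc6a9, a glycine transporter, measured 1.17 FPKM, against 3.38 FPKM.

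Of the lysosomal amino acid sensing genes, 17 of 18 passed the filter, with 2 higher and 3 lower on day 12 (11.6% and 9.67% of all tested genes) and a median log2 ratio of -0.19. Lamtor4, a Ragulator subunit that holds mTORC1 at the lysosome, measured 61.1 FPKM on day 12, against 21.5 FPKM in vehicle tumors. Rptor, the mTORC1 scaffold, measured 1.89 FPKM, against 4.8 FPKM. Rragd, a Rag GTPase, measured 1.64 FPKM, against 4.22 FPKM. The arginine sensor Castor1 measured 6.4 FPKM, against 17.1 FPKM. The other higher gene was Sesn1, a stress-induced sestrin, at a log2 ratio of 1.26 (named after its value was seen).

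The enzymes that use the imported amino acids had their largest differences upward. Of the 15 of 18 that passed the filter, 1 was lower and 4 were higher on day 12, while day 6 had 2 higher, beside 9.67% and 11.6% of all tested genes on day 12 and 6.32% higher on day 6. Arg1, which splits arginine, measured 43.0 FPKM on day 12 and 4.82 FPKM on day 6, against 1.59 FPKM in vehicle tumors. Nos2, which makes nitric oxide from arginine, measured 4.97 FPKM on day 12 and 1.5 FPKM on day 6, against 0.642 FPKM. Nos2 passed the filter on low values only through day 12, its mean over the other groups being 0.992 FPKM. Glul, which makes glutamine, measured 87.3 FPKM on day 12, against 13.1 FPKM. Il4i1, a secreted amino acid oxidase, measured 2.95 FPKM, against 1.14 FPKM. The single gene lower on day 12 was Bcat1, which starts the breakdown of leucine, at a log2 ratio of -1.03 (named after its value was seen).

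**Figure D4:**
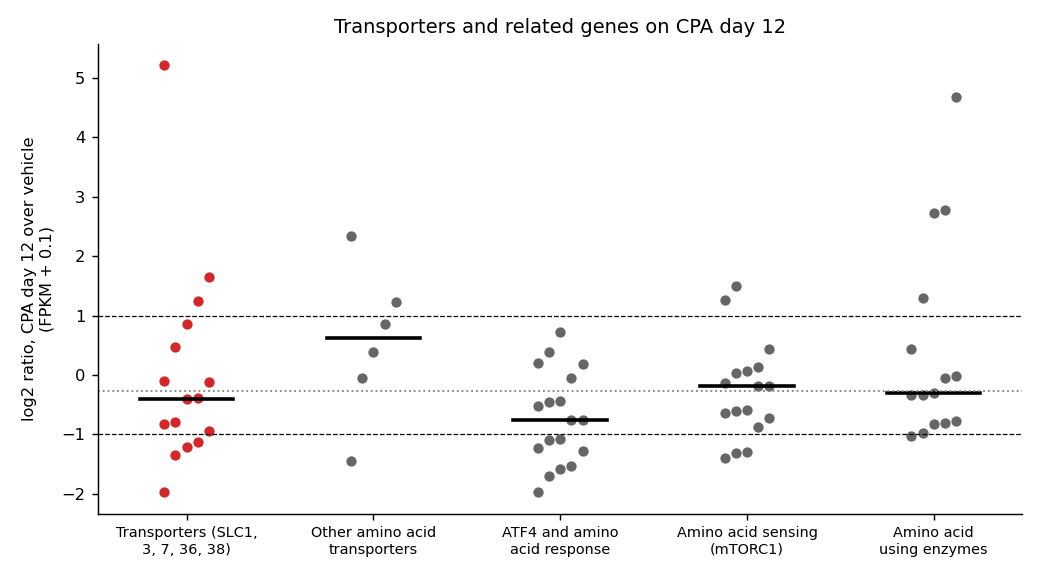
Log2 ratio of day 12 over vehicle on log2(FPKM + 0.1) for the 16 transporters (red) and 4 related gene lists (gray), 1 point per gene that passed the filter, with black bars at list medians, dashed lines at 2-fold and a dotted line at the median of all tested genes (-0.26). The ATF4 list has its median at -0.76 and no gene past 2-fold above vehicle.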

How the data were processed

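RNA from 12 pooled-tumor libraries in 6 groups was sequenced by the authors. Per the labels, their processing used TopHat2, featureCounts, edgeR and build mm9, whose versions are not given in the sources consulted. The authors deposited 1 FPKM value per group for 2 libraries together, so precision cannot be given. The paper states an average depth for its tumor libraries and refers to sequencing statistics of the libraries, which were not used here. The 5 vehicle columns were identical. The 15 columns of the authors' own comparisons (ratios, fold changes and p-values) were not used.

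Ratios were log2((FPKM + 0.1)/(vehicle FPKM + 0.1)), with a 2-fold call among rows of mean at least 1 FPKM (Python 3.11.15, pandas 2.3.3, numpy 2.4.6). The code for the calls was checked on values changed by set folds without noise, which does not measure how often a call is wrong. The design planned no test unless values per library were found, and none were. All transporters past the filter were named with every group value, those below it by their highest values, and up to 4 genes with the largest change past 2-fold per related list (Bcat1 and Sesn1 fall outside this rule). The members, lists and marker lists were chosen with earlier results of these data known. Symbols matched RefSeq for all 38 genes. Of the listed genes, 4 were matched by an older symbol and 2 (Slc66a4 and Trac) were not matched. Alternatives were other pseudocounts, filters, a 1.5-fold call and recentering.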

Additional observations from a re-analysis of the deposited data

How the results depend on the processing

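With 1 value per group, no library could be left out. No paired analysis was possible because the columns hold group values and carry no pool number. With a pseudocount of 1, 0 transporters were higher on day 6 in place of 1, beside 3.89% of all genes, Slc7a8 being lost. With no filter on low values, 2 were higher on day 6 and 8 on day 12 (5.33% and 13.9% of all genes). With a mean of at least 5 FPKM, 0 of 8 were higher on either day, beside 4.2% and 7.91% of all genes. That filter removed Slc7a8, Slc36a1 and Slc7a10, whose ratios did not change. Recentering on the median gene left 2 lower on day 12 in place of 4, beside 4.39% of all genes. A 1.5-fold call gave 1 lower on day 2, 2 higher on day 6 and 7 lower on day 12, beside 2.42%, 10.5% and 29.5% of all genes. A filter on the highest group value of at least 1 FPKM, chosen after seeing the data, gave 6 of 20 higher on day 12, beside 15.9% of all genes, and it admits some genes through their day 12 value alone. Taking the vehicle value from each comparison was not run, since the 5 vehicle columns are identical. All other counts of transporters under these alternatives and under pseudocount 0.01 stayed within 1.5 times, and no called ratio on day 6 or day 12 changed sign.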
